A study of Hipposideros armiger and Mus musculus with 20 samples.

Results

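The genes described here are Clstn3, S100b and Ntrk3, which encode calsyntenin-3, the calcium-binding protein S100B and the neurotrophin-3 receptor TrkC. They were taken by name as genes tied to the sympathetic nerve supply of brown fat, and they are 3 of the 14871 genes of the deposited table. The table gives FPKM (sequenced fragments per unit length of a gene's transcript, scaled to the size of its library) in 20 RNA sequencing libraries of adipose tissue, 8 from ICR mice, an outbred laboratory stock, and 12 from wild-type great roundleaf bats (Hipposideros armiger). Animals of both species were held for 7 days at 30 °C (warm) or 10 °C (cold). Mice gave 2 depots, brown fat from between the shoulder blades (interscapular, iBAT) and white fat from under the skin (subcutaneous, sWAT), and bats gave both of these and an intra-abdominal white depot (aWAT). Each of the 10 combinations of species, depot and temperature was 1 female and 1 male library, so every group had n = 2. The labels give no ages, and they do not say whether depots came from the same animals or whether animals were pooled. No allele or drug was part of the design.

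Brown fat burns fuel to make heat, and sympathetic nerve fibres that run among its cells release noradrenaline to switch it on. Calsyntenins are membrane proteins of the cadherin superfamily that act at synapses and in axonal transport, and a short fat-cell form of calsyntenin-3 is known to promote the sympathetic supply of thermogenic fat, in part through the release of S100B. S100B is best known from glia, Schwann cells included, but is also made by fat cells, and it can support the growth of neurites. TrkC is a receptor tyrosine kinase that binds neurotrophin-3, and sympathetic neurons are among the cells that use it.

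Identifiers of mouse genes are used for both species in the table, and how bat reads were assigned to them is not given in the sources used here. Levels are therefore compared between libraries of one species and never between the species. RefSeq lists a gene of each of the 3 names in the great roundleaf bat (assembly ASM189008v1). In the mouse annotation GENCODE M21 (build GRCm38), Clstn3 (ENSMUSG00000008153) lies on the minus strand at chr6:124430759-124464794 and has 7 annotated transcripts, 3 of them protein-coding. S100b (ENSMUSG00000033208) lies on the plus strand at chr10:76253853-76261159 with 1 transcript of 3 exons. Ntrk3 (ENSMUSG00000059146) lies on the minus strand at chr7:78175959-78738012 with 20 transcripts, 6 of them protein-coding. The longest exact stretch that a coding sequence shared with any transcript of another gene was 26 bases for Clstn3 (with Clstn2) and 23 for Ntrk3 (with Ror1), and S100b shared no stretch of 20 bases. In this annotation no exon base of the 3 genes lies in an exon of another gene.

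The sequences below, all of the mouse and read 5′ to 3′ from GENCODE M21, show what a gene-level value of each gene covers. The whole coding sequence of S100b is shown because it is the only one, with its start and stop codons in capitals. For Clstn3 the end of the coding sequence is shown, stop codon in capitals, because the short fat-cell form is known to share the end of the full-length protein, so that fragments from this stretch count alike for both. For Ntrk3 the coding ends of 2 kinds of transcript are shown, because the receptor exists with and without its kinase. Ntrk3-206 codes for 864 amino acids and ends in the kinase, and its stop codon is in capitals. Ntrk3-202 codes for 612 amino acids and lacks the kinase, and capitals mark its last 254 coding bases, which are not in Ntrk3-206.
S100b-201: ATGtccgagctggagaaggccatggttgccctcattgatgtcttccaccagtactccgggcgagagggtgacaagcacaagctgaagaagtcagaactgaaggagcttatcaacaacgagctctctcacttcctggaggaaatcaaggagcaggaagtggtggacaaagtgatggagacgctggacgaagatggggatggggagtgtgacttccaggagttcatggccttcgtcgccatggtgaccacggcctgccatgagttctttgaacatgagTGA
Clstn3-201: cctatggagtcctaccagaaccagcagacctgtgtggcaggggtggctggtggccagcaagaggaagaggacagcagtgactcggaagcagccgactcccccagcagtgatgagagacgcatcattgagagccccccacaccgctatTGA
Ntrk3-202: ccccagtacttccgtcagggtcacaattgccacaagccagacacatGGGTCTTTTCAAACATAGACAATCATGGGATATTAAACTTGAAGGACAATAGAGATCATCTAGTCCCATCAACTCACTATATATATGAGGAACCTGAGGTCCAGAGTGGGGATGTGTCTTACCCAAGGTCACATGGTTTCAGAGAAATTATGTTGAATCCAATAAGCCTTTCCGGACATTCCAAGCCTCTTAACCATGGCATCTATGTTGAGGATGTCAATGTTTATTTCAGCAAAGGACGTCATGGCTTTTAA
Ntrk3-206: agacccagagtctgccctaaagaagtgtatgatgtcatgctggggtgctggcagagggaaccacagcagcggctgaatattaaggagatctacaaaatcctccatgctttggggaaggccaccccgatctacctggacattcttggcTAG
The table holds 1 value per gene, so neither the forms of Clstn3 nor those of Ntrk3 were told apart.

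The fat-cell markers Adipoq, Plin1, Lpl, Pparg, Cidec, Lipe, Pnpla2 and Cebpa, 8 of the 10 fixed for that cell type, were all at 1 FPKM or more in the mean of every group, with summed levels of 1906 to 5173 FPKM in mouse libraries and 6730 to 10470 FPKM in bat libraries. The FPKM of all genes summed to between 263338 and 305098 in mouse libraries and to between 294103 and 358510 in bat libraries. Depth was estimated only relative to other libraries of the species, from the steps of low values, as 0.95 to 1.107 in mouse and 0.624 to 1.081 in bat, where the 4 iBAT libraries were lowest. The share of low-value ratios that fitted such steps was as low as 20.5% in mouse and 33.9% in bat libraries, so these estimates are rough. Summed levels of 8 skeletal muscle genes, Ckm among them, stood apart in some libraries. They were 2085 and 1668 FPKM in warm mouse iBAT (female and male, the order used throughout) and 3.66 and 942 in cold mouse iBAT. They were 16.8 and 1766 in cold mouse sWAT against 35.0 and 11.9 in warm, and 288 and 551 in cold bat sWAT against 14.6 and 3.41 in warm. Summed levels of 5 lymphocyte genes were 359 and 327 FPKM in warm mouse sWAT, 129 and 1.60 in cold. Th, tyrosine hydroxylase, a defining marker of sympathetic neurons, did not exceed 0.349 FPKM in any library. That low level was not taken as a measure of nerve supply.

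Clstn3 rose in the cold in both mouse depots and in the intra-abdominal white fat of the bat, and showed no change that passed the test in bat iBAT or sWAT. In mouse iBAT it stood at 16.7 and 18.0 FPKM in warm libraries and at 144 and 136 FPKM in the cold. Both cold libraries were far above both warm ones, with a mean 8.05 times higher. On the log2(FPKM + 1) scale used for all tests, the change was 3.23 ± 0.54 (SE, limma, Benjamini-Hochberg adjusted p = 0.0252), counted from the median change of all genes in the comparison. Here and below, p-values are those of the change before this median is taken off. The change of Clstn3 had the same sign and a size of 3.12 to 3.33 without any 1 of the 4 libraries, but its adjusted p was then 0.119 to 0.156, and with quantile normalization the change was 2.89 (adjusted p = 0.0511). In mouse iBAT 12.8% of 10689 tested genes passed the test with all libraries, and 1 or 2 genes in all passed it without any 1 of the 4. Beside Clstn3, the muscle genes were lower in the cold (3.66 and 942 against 2085 and 1668 FPKM, 0 of 8 called by limma). The summed level of 5 fibroblast and progenitor genes was also lower (52.9 and 55.2 against 161 and 170 FPKM), and 2 of them were called, Dcn, decorin (-1.47 ± 0.22, adjusted p = 0.0118), and Pi16 (-0.99 ± 0.28, adjusted p = 0.0358). Their part in the change of Clstn3 was not tested.

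In mouse sWAT, Clstn3 was at 1.86 and 9.26 FPKM in warm libraries and at 51.2 and 69.7 FPKM in the cold. The warm libraries differed widely between themselves, and the cold ones lay above both. The log2 change was 3.85 ± 0.54 (adjusted p = 0.0134), and it passed the test without any 1 of the 4 libraries, with values from 2.88 to 4.81. Without the cold male library, in which the muscle genes were high, it was 3.53 (adjusted p = 0.0378). In a fit of the 4 mouse sWAT libraries alone, Clstn3, S100b and Ntrk3 did not pass (each adjusted p = 0.122). Of all tested genes 33.2% passed in this comparison, 6.71% higher and 26.5% lower. Lymphocyte genes went down in it, from 359 and 327 to 129 and 1.60 FPKM in sum, with 2 of 5 called, Cd3e (-2.92 ± 0.96, adjusted p = 0.0422) and Cd5 (-3.18 ± 0.91, adjusted p = 0.0308), both of T cells. The summed level of 3 pericyte and smooth muscle genes was 56.9 and 83.4 against 36.8 and 42.9 FPKM, with Cspg4 called higher (2.38 ± 0.25, adjusted p = 0.0103). The part of these cells in the sWAT changes of Clstn3, and of S100b and Ntrk3 below, was not tested. In bulk tissue, more cells of a kind and more RNA per cell cannot be told apart, here and in all results that follow.

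In bat aWAT, Clstn3 was at 3.64 and 2.70 FPKM in warm libraries and at 24.6 and 11.8 FPKM in the cold. Both cold libraries were above both warm ones, although the cold pair itself differed by more than the warm pair. The log2 change was 2.26 ± 0.32 (adjusted p = 0.00297), in a comparison in which 14.8% of 11025 tested genes passed. Of the markers of other cells in bat aWAT, 2 of 3 pericyte and smooth muscle genes were called lower, Cspg4 (-0.68 ± 0.20, adjusted p = 0.0273) and Rgs5 (-0.63 ± 0.21, adjusted p = 0.0400), as was 1 of 5 fibroblast and progenitor genes, Dpp4 (-0.75 ± 0.18, adjusted p = 0.0126). Of the 8 fat-cell genes Pnpla2, a lipase, was called higher (0.96 ± 0.21, adjusted p = 0.0313), and Cebpa (-1.26 ± 0.28, adjusted p = 0.0104) and Lpl (-0.78 ± 0.27, adjusted p = 0.0463) lower. Their part in the aWAT changes of the 3 genes was not tested. In bat iBAT the level was high at both temperatures, at 34.5 and 23.5 FPKM in warm libraries and 27.4 and 25.6 FPKM in the cold, with a log2 change of -0.00 ± 0.32 (adjusted p = 0.893). The warm and cold libraries overlapped. In bat sWAT it was low at both, at 1.74 and 1.26 FPKM in warm libraries and 2.04 and 1.50 FPKM in the cold, with a log2 change of 0.08 ± 0.32 (adjusted p = 0.911), and these libraries overlapped too. In cold bat sWAT 6 of 7 muscle genes tested were called higher, against 1.02% of all tested genes, Tnni2 among them (5.57 ± 0.40, adjusted p = 5.00e-05). The part of the muscle genes in the sWAT values of the 3 genes was not tested. At 10 °C both iBAT libraries lay above both aWAT libraries, with a log2 difference of 0.75 ± 0.32 that did not pass the test (adjusted p = 0.484).

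**Figure D1:**
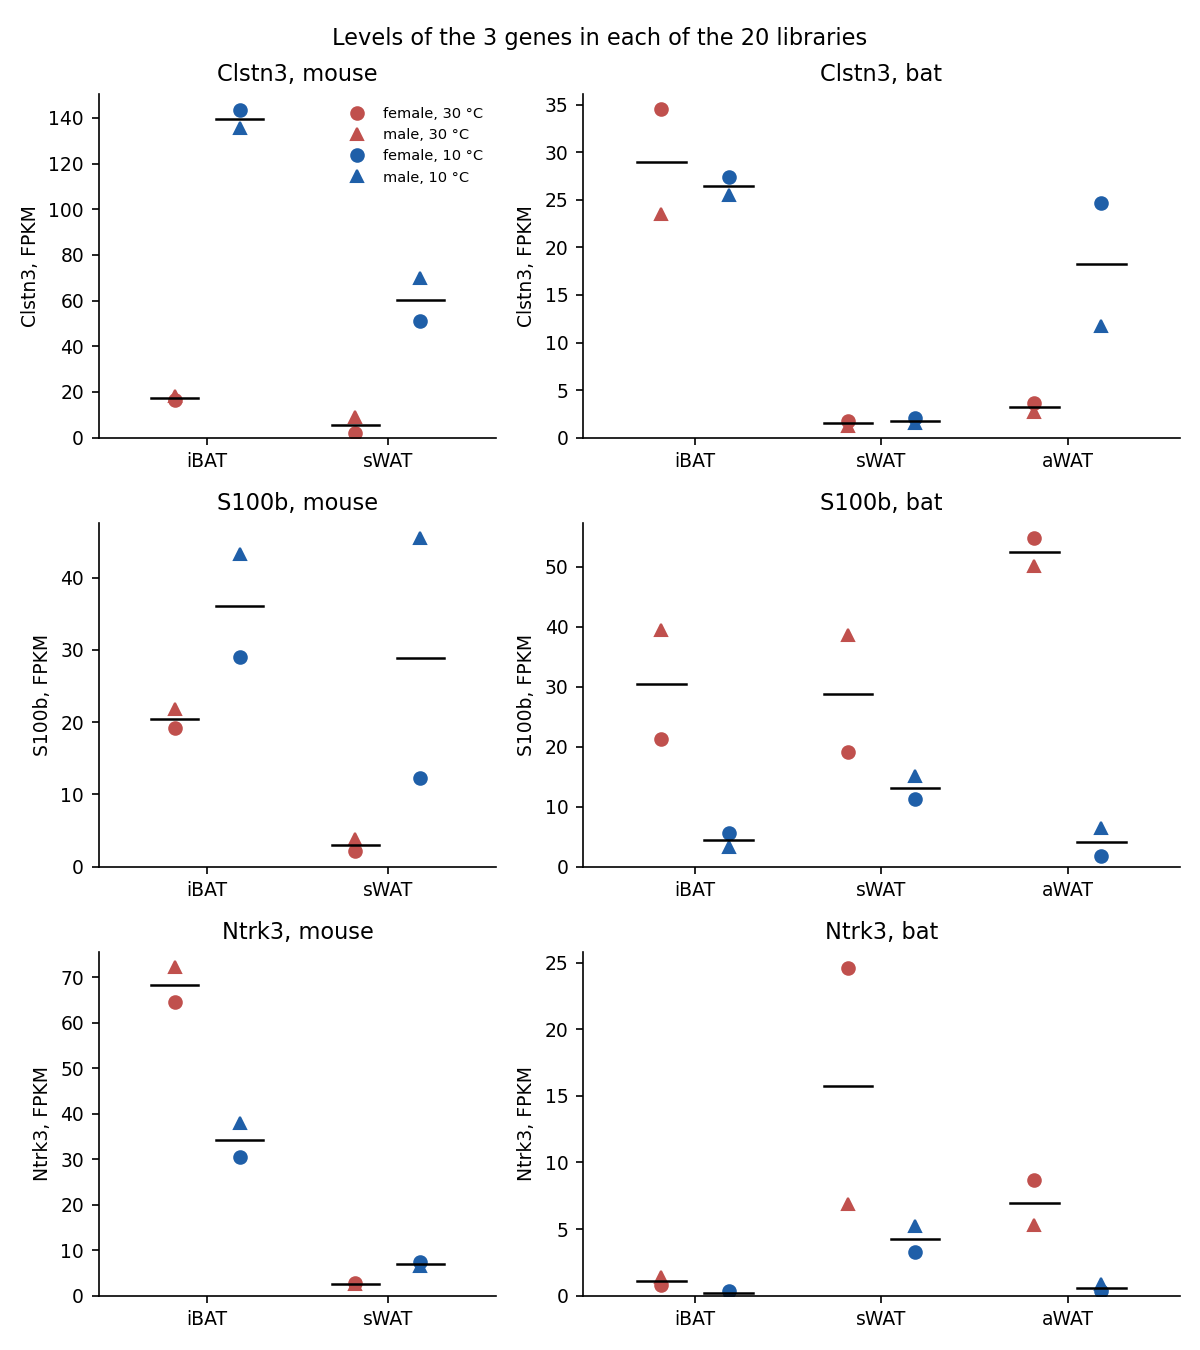
Level of each gene in FPKM (linear axes from 0) in the mouse depots (left) and the bat depots (right); each point is 1 library, circles female and triangles male, red 30 °C and blue 10 °C, and black bars are means of 2 libraries. Clstn3 in mouse rises from 16.7 and 18.0 to 144 and 136 FPKM in iBAT. S100b goes up in mouse and down in bat, but passes the test only in mouse sWAT, bat iBAT and bat aWAT. Ntrk3 is highest in warm iBAT in mouse, and in bat its lowest mean is that of cold iBAT (0.211 FPKM), which overlaps cold aWAT.

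S100b rose in the cold in mouse sWAT and fell in bat iBAT and bat aWAT. In mouse iBAT it was at 19.2 and 21.8 FPKM in warm libraries and at 29.0 and 43.2 FPKM in the cold. The 2 pairs did not overlap, but the log2 change of 1.06 ± 0.56, beside the lower muscle and fibroblast genes given above, did not pass the test (adjusted p = 0.386). In mouse sWAT it was at 2.20 and 3.78 FPKM in warm libraries and at 12.3 and 45.5 FPKM in the cold. Both cold libraries were above both warm ones, and the male, whose library also held the muscle genes, was the higher. The log2 change was 3.03 ± 0.56 (adjusted p = 0.0222). It was 2.02 (adjusted p = 0.0314) without the cold male library and 4.04 (adjusted p = 0.00114) without the cold female one, and it missed the threshold without the warm female (2.69, adjusted p = 0.118) or the warm male (3.35, adjusted p = 0.0535).

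In bat aWAT, S100b was at 54.8 and 50.2 FPKM in the warm, its highest bat level, and at 1.72 and 6.39 FPKM in the cold. The warm mean was 12.9 times the cold mean, and the pairs were far apart. The log2 change was -3.44 ± 0.49 (adjusted p = 0.00205), and it passed the test without any 1 of the 4 libraries, at -4.06 to -2.82. In bat iBAT it was at 21.3 and 39.5 FPKM in warm libraries and at 5.56 and 3.36 FPKM in the cold. Again the pairs did not overlap, and the log2 change was -2.39 ± 0.49 (adjusted p = 0.0403), against 1.94% of all genes tested that passed in that comparison. Leaving out any 1 of the 4 libraries gave values of -2.84 to -1.96 with adjusted p of 0.112 to 0.209, and the call was also lost with a pseudocount of 0.1, without the filter on low values and with quantile normalization. In bat sWAT the levels of 19.1 and 38.6 FPKM in warm libraries and 11.3 and 15.0 FPKM in the cold did not overlap, but the log2 change of -1.08 ± 0.49 did not pass (adjusted p = 0.516). All 6 warm bat libraries were thus above all 6 cold ones, from 19.1 to 54.8 FPKM against 1.72 to 15.0 FPKM.

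Because S100b is a common Schwann cell marker, the other Schwann cell genes are set beside it. The list held 17 genes, of which 15 were in the table, led by Pmp22, a myelin membrane protein, and Cnp, an enzyme of myelinating cells. Its summed level was 68.8 and 72.7 FPKM in warm and 27.2 and 33.3 FPKM in cold mouse iBAT, so that it was lower in the cold libraries in which S100b was higher. In mouse sWAT it was 169 and 128 FPKM in warm libraries and 129 and 77.3 FPKM in the cold, where S100b had risen. In bat aWAT it was 82.4 and 95.4 FPKM in warm libraries and 44.1 and 70.4 FPKM in the cold, lower by far less than S100b, and in bat iBAT 46.0 and 48.8 FPKM against 37.5 and 38.5 FPKM. In bat sWAT it was 55.9 and 93.8 FPKM in warm libraries and 125 and 113 FPKM in the cold.

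Among single genes of the Schwann cell list, 3 of 12 tested were lower in cold mouse iBAT, Pmp22 (log2 change -0.93 ± 0.18, adjusted p = 0.0167) and Cdh19 (-0.66 ± 0.16, adjusted p = 0.0211) among them, where 10.2% of all tested genes were called lower. In mouse sWAT 3 of 12 were lower, a share near the 26.5% of all tested genes called lower there, Cnp (-1.36 ± 0.47, adjusted p = 0.035), L1cam and Egr2. In bat aWAT, where 6.49% of all genes were called lower, 1 of 13 was lower, Fa2h (-1.02 ± 0.20, adjusted p = 0.00516), in bat sWAT Mbp alone was higher (1.68 ± 0.31, adjusted p = 0.0254), and in bat iBAT limma called 0 of 13 (2 at an unadjusted p under 0.05). The defining factor Sox10 was at 0.822 and 1.36 FPKM in cold bat aWAT against 1.58 and 1.46 FPKM in warm, and its change did not pass in any of the 5 depots. The part that Schwann cells have in the level of S100b was not tested.

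**Figure D2:**
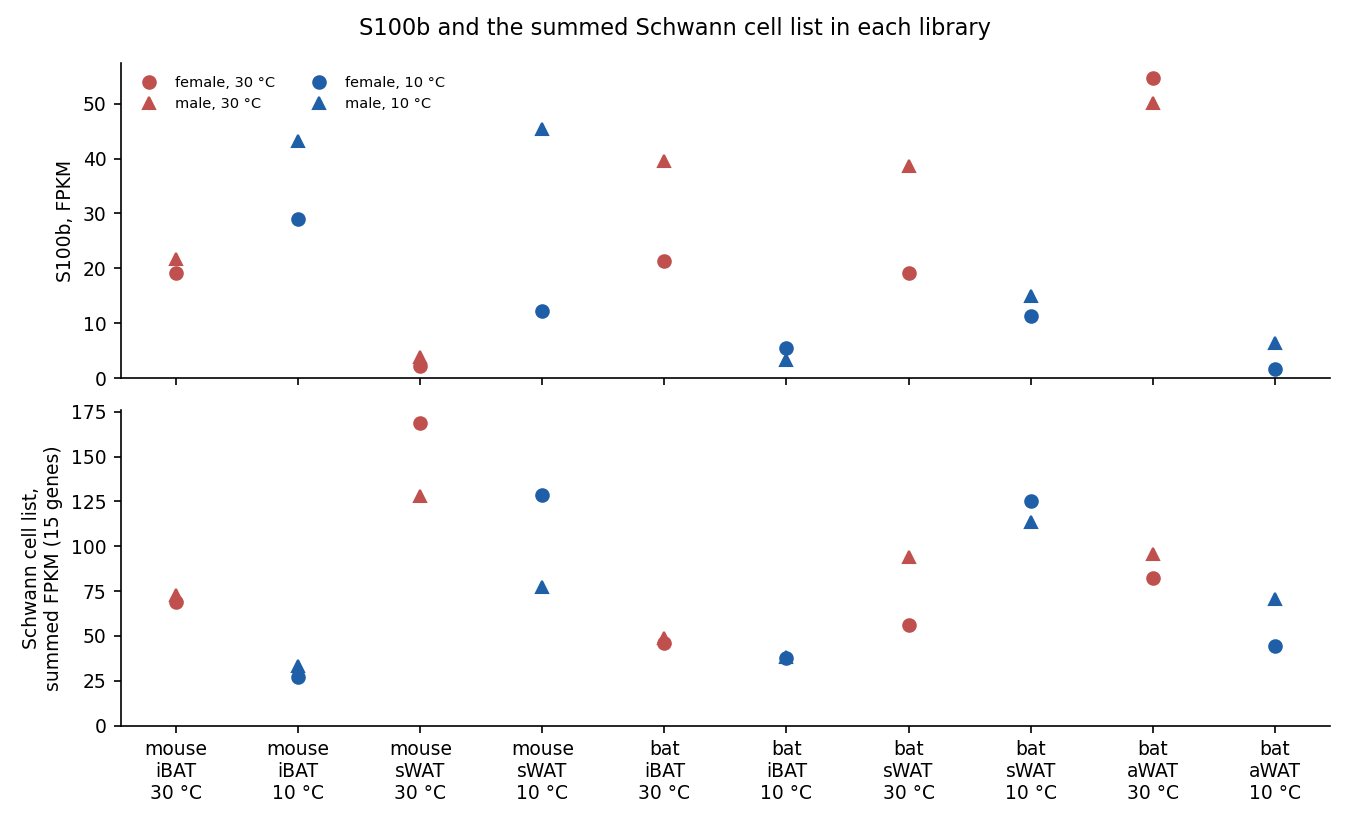
S100b (top) and the summed level of 15 other Schwann cell genes (bottom) in FPKM, from 0, in each library of the 10 groups named below the axis; circles female, triangles male, red 30 °C, blue 10 °C. In mouse iBAT S100b is higher in the cold while the list falls from 68.8 and 72.7 to 27.2 and 33.3 FPKM.

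Ntrk3 fell in the cold in mouse iBAT and bat aWAT and rose in mouse sWAT. In warm mouse iBAT it reached 64.5 and 72.2 FPKM, higher than 96.6% of the genes of the table, and in cold iBAT it was at 30.6 and 38.0 FPKM. The cold libraries were about 2-fold lower than the warm ones and did not overlap them. Counted from the median of all genes the log2 change was -0.68 ± 0.17, and before the median was taken off it was -0.98 (adjusted p = 0.0214 for the latter). It kept its sign but not the call with the scaling to median ratios (-0.54, adjusted p = 0.0984) and without any 1 of the 4 libraries (-0.87 to -0.51, adjusted p = 0.114 to 0.128). The muscle genes were also lower in this comparison, at 3.66 and 942 FPKM against 2085 and 1668 FPKM, and their part in the change of Ntrk3 was not tested.

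In mouse sWAT, Ntrk3 was at 2.72 and 2.51 FPKM in warm libraries and at 7.34 and 6.61 FPKM in the cold. Both cold libraries were above both warm ones by a like factor in each sex (2.70 in females, 2.63 in males). The log2 change was 1.50 ± 0.17 (adjusted p = 0.0125), and 33.2% of all tested genes passed in this comparison. Without the warm female library the adjusted p was 0.0755, at a change of 1.49. The cold sWAT libraries were still far under those of warm iBAT, by 3.32 ± 0.17 on the log2 scale (cold sWAT minus warm iBAT -3.32, adjusted p = 0.00305), while Clstn3 and S100b in cold sWAT were not shown to differ from warm iBAT (1.53, adjusted p = 0.0824, and 0.01, adjusted p = 0.818), in a comparison in which 12.8% of genes passed.

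In bat aWAT, Ntrk3 was at 8.65 and 5.32 FPKM in warm libraries and at 0.33 and 0.87 FPKM in the cold. The log2 change was -2.17 ± 0.48 (adjusted p = 0.0123), and it missed the threshold without the warm female (adjusted p = 0.0961) or the cold female library (adjusted p = 0.107). In bat sWAT it was at 24.6 and 6.87 FPKM in warm libraries and at 3.31 and 5.24 FPKM in the cold. The warm female stood apart from the other 3, and the log2 change of -1.52 ± 0.48 did not pass (adjusted p = 0.300). It was -0.69 (adjusted p = 0.775) without that library and -2.34 (adjusted p = 0.0228) without the warm male. In bat iBAT it was at 0.84 and 1.39 FPKM in warm libraries and at 0.33 and 0.09 FPKM in the cold, with a log2 change of -0.70 ± 0.48 (adjusted p = 0.380). The cold libraries of all 3 bat depots were under the warm ones of the same depot, although only aWAT passed the test.

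The annotation places Gm9885, an antisense gene, within Ntrk3 and Dip2a on the opposite strand over S100b. Their exons share no base with those of the 3 genes in GENCODE M21, but which annotation and strand setting the counting used is not given in the sources used here. Gm9885 followed Ntrk3 closely over the libraries of each species, with r = 0.994 over 8 mouse and 0.974 over 12 bat libraries (log2 scale), at levels up to 5.58 and 7.56 FPKM. Dip2a had r = 0.945 with S100b in mouse and 0.01 in bat, and it lay between 3.39 and 10.6 FPKM in mouse and between 5.31 and 8.85 FPKM in bat libraries. The groups and depots that the libraries share enter each of these values.

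**Figure D3:**
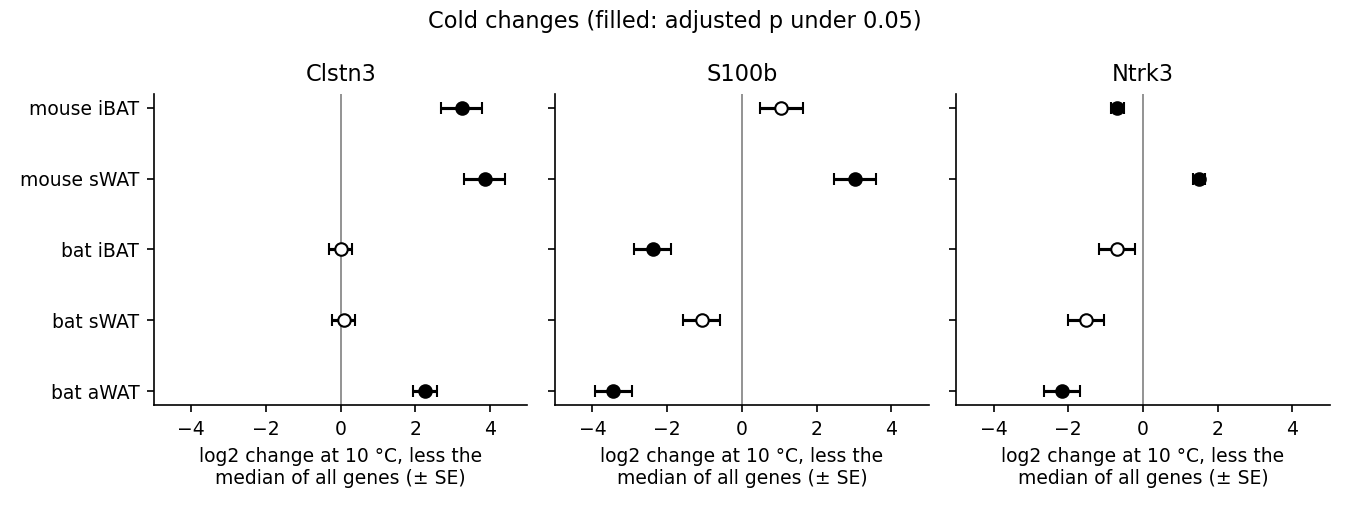
Change of each gene in the cold (10 °C minus 30 °C) on the log2(FPKM + 1) scale less the median change of all genes, as estimate ± SE from the limma fit of groups of 2 libraries, for the 5 depots; filled points passed an adjusted p of 0.05. Clstn3 lies at 3.23 and 3.85 in the mouse depots and 2.26 in bat aWAT, S100b at 3.03 in mouse sWAT and -3.44 in bat aWAT.

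Between depots, the 3 genes were arranged alike in warm mice and differently in bats. In warm mouse fat all 3 were higher in iBAT than in sWAT, where 58.6% of all tested genes passed, 10.7% higher and 48% lower. The log2 difference was 2.33 ± 0.54 for Clstn3 (adjusted p = 0.0301), 3.03 ± 0.56 for S100b (adjusted p = 0.0111) and 4.83 ± 0.17 for Ntrk3 (adjusted p = 0.000332). That of Clstn3 lost its call without the filter on low values (2.14, adjusted p = 0.0534), in a fit of the 4 libraries alone (adjusted p = 0.0726) and without the female (adjusted p = 0.0955) or the male iBAT library (adjusted p = 0.119), and it was 1.35 without the female and 3.27 without the male sWAT library. At 10 °C the difference of Ntrk3 passed (2.61 ± 0.17, adjusted p = 0.00141) and those of Clstn3 (1.68, adjusted p = 0.126) and S100b (1.02, adjusted p = 0.456) did not, in a comparison in which 29.7% of genes passed. The difference of S100b there rests on single libraries: it was -0.02 without the cold female sWAT library and 2.03 (adjusted p = 0.0188) without the cold male one. Lymphocyte genes made up a large signal in warm mouse sWAT, 359 and 327 FPKM against 1.33 and 1.803 FPKM in warm iBAT, and muscle genes in warm iBAT, and their part in these differences was not tested.

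In warm bats Clstn3 was higher in iBAT than in sWAT (3.63 ± 0.32, adjusted p = 9.98e-05) and than in aWAT (2.98 ± 0.32, adjusted p = 0.000506). Ntrk3 lay the other way, lower in iBAT than in sWAT (-2.69 ± 0.48, adjusted p = 0.00278) and than in aWAT (-1.75 ± 0.48, adjusted p = 0.0206). S100b was not shown to differ (0.16, adjusted p = 0.921, and -0.68, adjusted p = 0.264). The shares of all tested genes that passed in either direction were 23.8% against sWAT and 19.9% against aWAT. The 2 white depots of warm bats did not differ past the threshold in any of the 3 genes, with 0.916% of all genes passing.

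In cold bats iBAT stood above sWAT in Clstn3 (3.57 ± 0.32, adjusted p = 7.40e-05) and below it in S100b (-1.14 ± 0.49, adjusted p = 0.0456) and Ntrk3 (-1.85 ± 0.48, adjusted p = 0.00661), with 39.7% of all genes passing. Cold aWAT took the same positions against cold sWAT: Clstn3 was higher (2.81 ± 0.32, adjusted p = 0.000444), S100b lower (-1.55 ± 0.49, adjusted p = 0.0385) and Ntrk3 lower (-1.62 ± 0.48, adjusted p = 0.0295), with 21.7% passing. Both sets of values share the cold sWAT libraries, in which the muscle genes were at 288 and 551 FPKM. Between cold iBAT and cold aWAT no difference of the 3 genes passed (0.75, 0.40 and -0.24 for Clstn3, S100b and Ntrk3, adjusted p = 0.484, 0.869 and 0.777), and 0.907% of all genes did. The S100b differences in the cold lost the call without single libraries, with -1.42 to -0.83 for iBAT against sWAT and -2.18 to -0.91 for aWAT against sWAT.

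Cold bat aWAT was also set against warm bat iBAT, where 4.01% of all genes passed. S100b was lower in cold aWAT (-2.80 ± 0.49, adjusted p = 0.0176), and Clstn3 (-0.76, adjusted p = 0.259) and Ntrk3 (-0.47, adjusted p = 0.696) were not shown to differ.

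By mean level, the order of Clstn3 in mouse was cold iBAT (140 FPKM), cold sWAT (60.5), warm iBAT (17.4) and warm sWAT (5.56), and no neighbours in it overlapped. The order of Ntrk3 in mouse was warm iBAT (68.3), cold iBAT (34.3), cold sWAT (6.97) and warm sWAT (2.62), again without overlap. That of S100b was cold iBAT (36.1), cold sWAT (28.9), warm iBAT (20.5) and warm sWAT (2.99), of which only warm sWAT stood clear of its neighbour. In bat, Clstn3 ran from warm and cold iBAT (29.0 and 26.5, overlapping) through cold aWAT (18.2) and warm aWAT (3.17) to cold and warm sWAT (1.77 and 1.50, overlapping). S100b ran from warm aWAT (52.5) through warm iBAT (30.4) and warm sWAT (28.9), which overlapped, to cold sWAT (13.2), cold iBAT (4.46) and cold aWAT (4.05), of which the last pair overlapped. Ntrk3 ran from warm sWAT (15.7) and warm aWAT (6.99), which overlapped, through cold sWAT (4.28) to warm iBAT (1.11), cold aWAT (0.600) and cold iBAT (0.211), which overlapped with their neighbours.

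Whether the cold response itself differed between depots was tested with an interaction term. In bat, Clstn3 responded more in aWAT than in sWAT (difference of log2 changes 2.17 ± 0.45, adjusted p = 0.0430), where 3.8% of all genes passed. The call was lost without any 1 of 7 of the 8 libraries, the exception being the cold male aWAT library, with values of 1.57 to 2.77. The difference of iBAT from aWAT for Clstn3, -2.24 ± 0.45, did not pass (adjusted p = 0.106), nor did that of aWAT from sWAT for S100b (-2.38 ± 0.69, adjusted p = 0.0702). With sex as a block the Clstn3 difference passed (adjusted p = 0.0382), and with a block of sex within temperature, a fit chosen after seeing the data, both did (adjusted p = 0.0297 for Clstn3 and 0.0383 for S100b). The shares of all genes that passed were 0.245% for iBAT against aWAT and 0.608% for iBAT against sWAT, where none of the 3 did. In mouse the opposite changes of Ntrk3 in iBAT and sWAT gave a difference of -2.17 ± 0.23 that stayed just over the threshold (adjusted p = 0.0566), in a comparison in which 4 of 10689 genes passed (0.0374%). That of S100b was -1.95 ± 0.80 (adjusted p = 0.246) and that of Clstn3 -0.60 ± 0.77 (adjusted p = 0.717).

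The cold responses of the 2 species were set against each other in a joint fit of 9400 genes that passed the filter in both, a comparison added after the values had been seen. It compares changes within each species, so that a fixed difference in scale between species cancels for all but low values. In iBAT the response of Clstn3 was lower in bat by 3.25 ± 0.64 (bat minus mouse -3.25, adjusted p = 0.0190) and that of S100b was lower in bat by 3.46 ± 0.79 (-3.46, adjusted p = 0.0356), while that of Ntrk3 was not shown to differ (-0.03 ± 0.58, adjusted p = 0.902). In that comparison 4.15% of all genes passed, and both calls were lost when single libraries were left out, with adjusted p up to 0.0815 for Clstn3 and 0.123 for S100b. Ntrk3 was low in bat iBAT, at 0.33 and 0.09 FPKM in the cold, where the scale understates changes. Its cold mean was 0.189 of the warm mean there and 0.502 of it in mouse iBAT. In sWAT all 3 responses were lower in bat, Clstn3 at -3.76 ± 0.64 (adjusted p = 0.00582), S100b at -4.09 ± 0.79 (adjusted p = 0.00933) and Ntrk3 at -3.01 ± 0.58 (adjusted p = 0.0105), with 21.5% of all genes passing. Bat aWAT and mouse sWAT are the white depots in which Ucp1, the uncoupling protein that makes heat, went from near 0 to high levels in the cold. Between these depots S100b responded in opposite directions, by -6.50 ± 0.79 (adjusted p = 0.000854), and so did Ntrk3 (-3.71 ± 0.58, adjusted p = 0.00446), while the rise of Clstn3 was not shown to differ (-1.62 ± 0.64, adjusted p = 0.170). In this comparison 11% of all genes passed.

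Ucp1 went from 1.19 and 1.53 FPKM to 1229 and 2977 FPKM in mouse sWAT and from 3.18 and 2.67 FPKM to 7184 and 2939 FPKM in bat aWAT. In mouse iBAT it went from 192 and 49.9 FPKM to 3688 and 5119 FPKM, in bat iBAT from 2886 and 2670 FPKM to 10404 and 7239 FPKM, and in bat sWAT it stayed between 0.410 and 1.20 FPKM. Over the libraries of a species, Clstn3 was high where Ucp1 was high, with Pearson r on the log2 scale of 0.948 over 8 mouse and 0.974 over 12 bat libraries. S100b went with Ucp1 in mouse (r = 0.896) and against it in bat (r = -0.613), and Ntrk3 had r = 0.458 in mouse and -0.904 in bat. These values describe libraries that share depots and temperatures, and they carry no test.

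**Figure D4:**
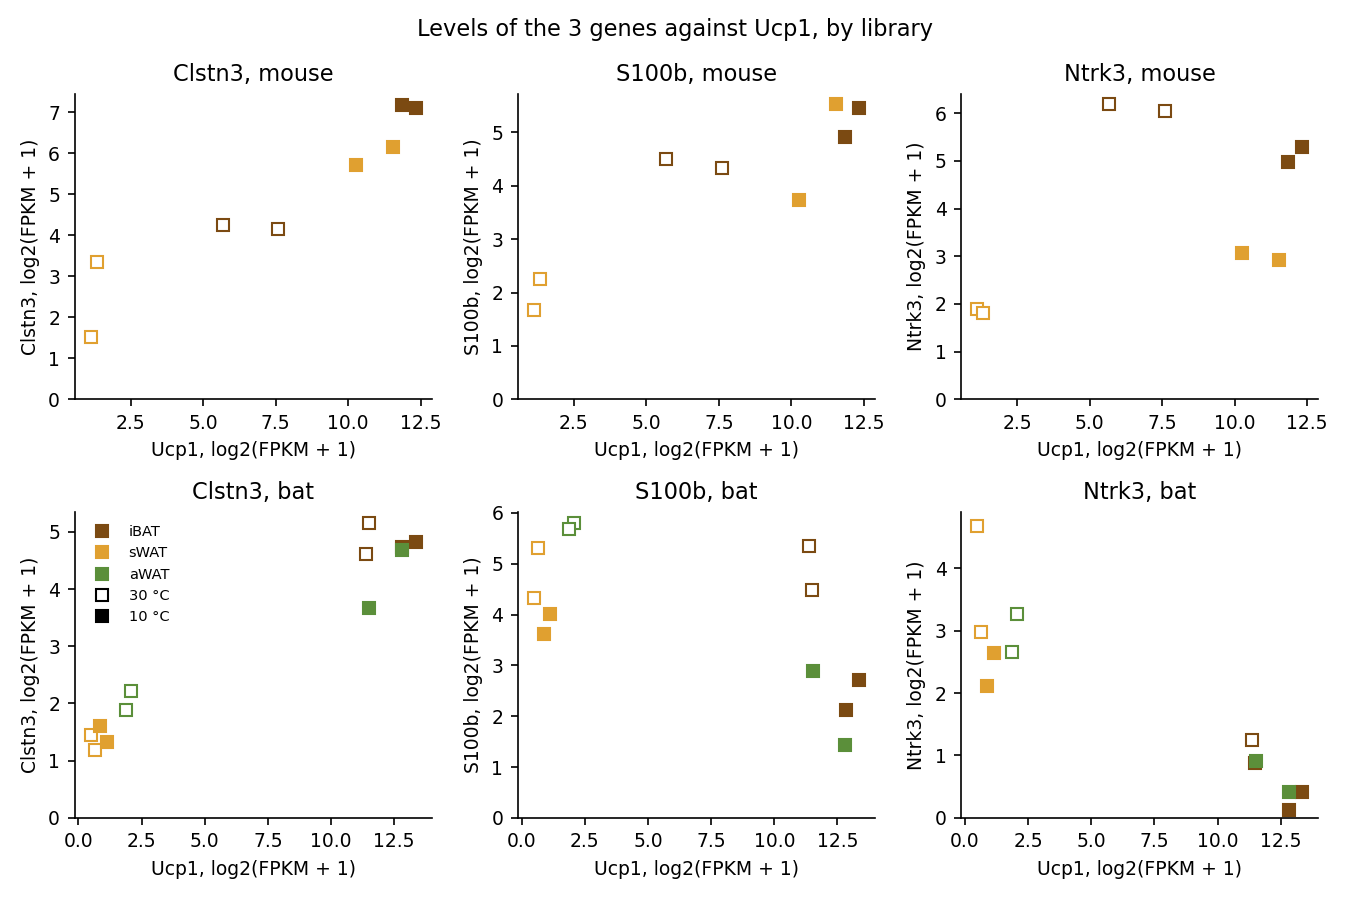
Level of each gene against that of Ucp1, both as log2(FPKM + 1), in mouse (top, 8 libraries) and bat (bottom, 12 libraries); each square is 1 library, coloured by depot, open at 30 °C and filled at 10 °C. Clstn3 climbs with Ucp1 in both species, while Ntrk3 in bat is lowest where Ucp1 is highest.

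The genes most like each member over the libraries of a species were found among genes with a mean of at least 5 FPKM (6038 in mouse, 5861 in bat). For Clstn3 they included in mouse Gpd1, a glycerol-3-phosphate dehydrogenase (r = 0.998), Pmpca, a mitochondrial processing peptidase subunit (0.990), Rmdn3, Hk2, a hexokinase, and C1rl. In bat they included Mtss1 (r = 0.995), Acadm, a fatty acid oxidation enzyme (0.992), Prdx5 and Cpt1b, the muscle-type carnitine palmitoyltransferase (0.987). Pmpca and Rmdn3 were also close to Clstn3 in the bat (r = 0.921 and 0.946), while Gpd1 had r = -0.609 there. For S100b they were in mouse Hspa9-ps1, a pseudogene whose reads may stem from its parent (r = 0.987), Mdh2, mitochondrial malate dehydrogenase (0.985), Ss18l2, Ankrd40 and Atpaf2, an assembly factor of ATP synthase. In bat they were Wbp2 (r = 0.935), Ypel3, Lrrc45, Bbs4 and Slc27a1, a fatty acid transporter (0.921), and all 5 of the mouse genes had negative r with S100b in the bat. For Ntrk3 they included in mouse Coq8a, a factor of coenzyme Q synthesis (r = 0.984), Rsph3b, Macrod1 and Sirt3, a mitochondrial deacetylase (0.977). In bat they were Tsga10ip (r = 0.961), Svbp, which assists the vasohibins (0.961), Dctn1, a dynactin subunit (0.960), Pacs2 and Renbp. With 8 or 12 libraries in 4 or 6 groups, high r is given by any gene with the same order of groups.

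No other calsyntenin passed the test in the cold. Clstn1, which is known for its part in axonal transport, was at 9.05 and 7.11 FPKM in warm and 6.08 and 3.85 FPKM in cold mouse iBAT, with a log2 change of -0.33 ± 0.29 (adjusted p = 0.190). In mouse sWAT it was at 21.8 and 15.8 FPKM against 16.9 and 11.1 FPKM (-0.04 ± 0.29, adjusted p = 0.304), and in bat libraries it lay between 17.7 and 25.1 FPKM with no change that passed. Clstn2 was at or under 1.17 FPKM in every library and was not tested. The lists that follow are counted by direction. The shares of all tested genes that passed higher and lower in the cold were 2.63% and 10.2% in mouse iBAT, 6.71% and 26.5% in mouse sWAT, 1.07% and 0.871% in bat iBAT, 1.02% and 0.0635% in bat sWAT (1.08% in all), and 8.33% and 6.49% in bat aWAT. Of the S100 family, 11 of 16 genes were in the table, and the only other members to rise were S100a1 (1.78 ± 0.25, adjusted p = 0.0168) and S100a13 (1.26 ± 0.27, adjusted p = 0.0468) in mouse sWAT. S100a1 went there from 59.4 and 73.0 FPKM to 147 and 213 FPKM, and S100a13 from 73.9 and 72.7 FPKM to 108 and 176 FPKM. S100a8, a protein of neutrophils and macrophages, fell in mouse iBAT (-1.80 ± 0.38, adjusted p = 0.0244) and mouse sWAT (-2.42 ± 0.38, adjusted p = 0.0118), and S100a14 fell in bat aWAT (-1.28 ± 0.23, adjusted p = 0.00422). The family counts with S100b included were 0 higher and 1 lower of 8 tested in mouse iBAT, 3 and 1 of 8 in mouse sWAT, 0 and 2 of 11 in bat aWAT, 0 and 1 of 11 in bat iBAT and 0 and 0 of 11 in bat sWAT (limma, 3 there at an unadjusted p under 0.05). Its median log2 change was between -0.32 and 0.42 in the 5 depots, where 0 is the median of all genes.

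Ntrk3 had the widest range of the neurotrophin receptors described here. Its ligand Ntf3 was not analysed here. Ntrk2, which encodes TrkB, the receptor of brain-derived neurotrophic factor, was at 16.5 to 27.0 FPKM in all mouse libraries and did not change past the threshold in either depot (0.60, adjusted p = 0.407 in iBAT and 0.26, adjusted p = 0.744 in sWAT). It was listed at or near 0 in the bat, at 0.0979 FPKM or less. So were some genes that every cell uses, with a median of 0.534 FPKM over the 12 bat libraries for the translation factor Eef1a1, so a low bat value was not taken as absence. Ngfr, the p75 receptor that neurotrophins share, was at 0.795 to 3.87 FPKM in mouse and 1.44 to 8.74 FPKM in bat, and its change did not pass in any depot. Bdnf, brain-derived neurotrophic factor, was at 0.307 FPKM or less in mouse and was not tested there, and at 0.407 to 5.72 FPKM in bat without a change that passed.

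**Figure D5:**
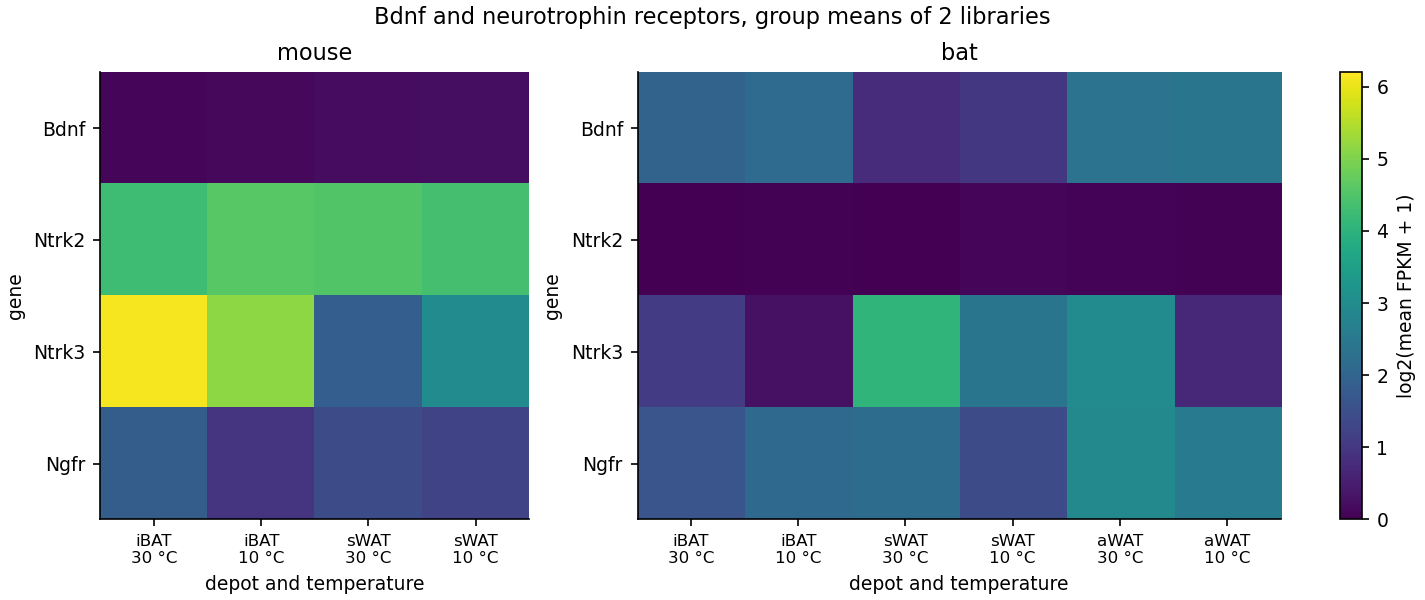
Mean level (log2 of the mean FPKM of 2 libraries + 1, colour scale at right) of the neurotrophin Bdnf and the receptors Ntrk2, Ntrk3 and Ngfr in each depot and temperature of mouse (left) and bat (right). Ntrk3 is brightest in warm mouse iBAT (mean 68.3 FPKM), and Ntrk2 is near 0 throughout the bat.

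Among the proteins that carry signals of Trk receptors, 13 genes were tested in mouse and 11 in bat. Sh2b2, an adaptor of Trk and insulin receptors, rose in both mouse depots, from 15.1 and 17.9 FPKM to 54.3 and 49.0 FPKM in iBAT (1.89 ± 0.19, adjusted p = 0.0118) and from 8.59 and 11.4 FPKM to 29.3 and 25.5 FPKM in sWAT (1.75 ± 0.19, adjusted p = 0.0118). Gab1, a docking protein, fell in mouse iBAT (-0.89 ± 0.19, adjusted p = 0.0188). Plcg1, phospholipase C gamma 1, which TrkC activates, fell in mouse sWAT (-0.31 ± 0.15, adjusted p = 0.0228) and in bat aWAT (-0.56 ± 0.20, adjusted p = 0.0465), and Crkl fell in mouse sWAT. In mouse sWAT Plcg1 was at -0.68 and Crkl at -0.73 before the median of all genes was taken off, and at -0.31 and -0.37 after. Their p-values belong to the former values, and 26.5% of all tested genes were called lower there. A fall relative to other genes was not tested. The counts were 1 higher and 1 lower in mouse iBAT, 1 and 2 in mouse sWAT, 0 and 1 in bat aWAT and 0 and 0 in the other bat depots (limma, 0 there at an unadjusted p under 0.05 also).

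Of the GDNF family, Gfra4, a co-receptor, fell in mouse iBAT (-0.96 ± 0.21, adjusted p = 0.0212) and in bat aWAT (-0.76 ± 0.25, adjusted p = 0.0396), and Nrtn, neurturin, rose in bat aWAT (0.93 ± 0.23, adjusted p = 0.0456) from 0.989 and 0.275 FPKM to 1.73 and 1.78 FPKM. No other member of the 4 tested in mouse or 7 in bat passed in the cold. Of the semaphorins, netrins, slits and their receptors, which guide axons and vessels, 14 were tested in mouse and 18 in bat. Slit2, a repellent of many axons, rose in bat iBAT (2.20 ± 0.28, adjusted p = 0.0152), with 1.96 and 1.29 FPKM in warm and 11.4 and 9.15 FPKM in cold libraries. It rose in bat aWAT as well (1.42 ± 0.28, adjusted p = 0.0162), with 3.40 and 3.59 FPKM in warm and 14.3 and 6.88 FPKM in cold libraries. Nrp2, a semaphorin receptor, fell in mouse iBAT (-0.80 ± 0.24, adjusted p = 0.0373) and bat iBAT (-1.08 ± 0.25, adjusted p = 0.0490). Plxna2, a plexin, rose in mouse iBAT (1.11 ± 0.20, adjusted p = 0.0449) and fell in bat aWAT (-1.42 ± 0.37, adjusted p = 0.0229), where Sema3b and Plxnd1 fell as well. Slit3 fell in mouse iBAT. The counts were 1 higher and 2 lower in mouse iBAT, 1 and 1 in bat iBAT, 1 and 4 in bat aWAT, and 0 and 0 in both sWAT depots (limma, with 0 in mouse and 1 in bat sWAT at an unadjusted p under 0.05). The list of synapse organisers holds the neurexins, known partners of calsyntenin-3, but of these only Nrxn2 was tested, and only in mouse. The genes tested were 4 in mouse (Nlgn2, Nrxn2, Ptprd and Ptprs) and 3 in bat (Nlgn2, Nlgn3 and Ptprs). limma called 0 in each cold comparison, with 2 at an unadjusted p under 0.05 in mouse iBAT and in bat aWAT, 1 in mouse sWAT and 0 in bat iBAT and sWAT. Of the markers of sympathetic neurons and axons, 3 were tested in mouse and 5 in bat: Stmn2 rose in mouse iBAT (1.11 ± 0.19, adjusted p = 0.0418), where it had 1.35 and 0.845 FPKM in warm and 2.81 and 2.49 FPKM in cold libraries, and Prph, peripherin, fell in bat aWAT (-0.84 ± 0.17, adjusted p = 0.00633), from 2.05 and 1.69 FPKM to 0.549 and 0.368 FPKM. The markers did not move together. In mouse iBAT Slc18a2 (0.37 ± 0.24, adjusted p = 0.871) and Uchl1 (-0.08 ± 0.16, adjusted p = 0.156) were not called. In bat aWAT, where Prph fell, Gap43 was higher in the cold, and in bat sWAT Slc6a2 was higher. Gap43 and Slc6a2 each had an unadjusted p under 0.05 there (limma), and neither was called.

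Of 8 other fat-derived factors tied to nerves or thermogenic tone, Fgf21 rose in both mouse depots (1.05 ± 0.19, adjusted p = 0.0473 in iBAT and 1.61 ± 0.19, adjusted p = 0.0128 in sWAT), at levels of at most 1.97 FPKM. Bmp8b, a bone morphogenetic protein tied to sympathetic tone, rose in mouse iBAT (2.41 ± 0.39, adjusted p = 0.0251) and Nrg4, neuregulin-4, which promotes neurite growth, in mouse sWAT (1.24 ± 0.27, adjusted p = 0.0471). Angptl4 fell in mouse iBAT and Tgfb1 in mouse sWAT, and in each of the 3 bat depots limma called 0 of 5 (1, 2 and 1 at an unadjusted p under 0.05 in iBAT, sWAT and aWAT). The thermogenic genes, a list that earlier results of these data helped to choose, gave 4 higher of 17 tested in mouse iBAT (Ucp1, Dio2, Otop1 and Letmd1), 10 of 17 in mouse sWAT, 8 of 15 in bat aWAT and 0 of 15 in bat iBAT and in bat sWAT (4 and 3 there at an unadjusted p under 0.05), and 0 lower in each. Prdm16 and Ebf2, transcription factors of brown fat, did not pass in any of the 5. Clstn3 was called in the 3 depots in which thermogenic genes were called. That match rests on the threshold and on a list chosen with earlier results of these data known. In bat iBAT Ucp1 (1.74 ± 0.36, adjusted p = 0.0502) and Letmd1 (1.30 ± 0.30, adjusted p = 0.0753) were higher at an unadjusted p under 0.05. Ebf2 and Zfp516 were lower there, also at an unadjusted p under 0.05, and Clstn3 changed by -0.00 ± 0.32. Across all lists, 90 gene values passed in the 5 cold comparisons. None of them changed sign under the 3 other scalings (median ratios, quantiles, and the sum without the 10 highest genes), and 67, 67 and 84 of them still passed. Of the genes named, those that missed the threshold under at least 1 scaling were Pmp22, Cdh19, S100a8, Gfra4, Nrp2, Plxna2, Slit3, Fgf21 and Angptl4 in mouse iBAT, Cnp, L1cam, Egr2, S100a13, Plcg1, Crkl and Tgfb1 in mouse sWAT, Nrp2 in bat iBAT, and Gfra4, Plcg1 and Nrtn in bat aWAT.

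No difference between the sexes passed for the 3 genes. Over all depots, male minus female was 0.69 ± 0.33 for Clstn3, 0.89 ± 0.28 for S100b and 0.18 ± 0.12 for Ntrk3 in mouse (adjusted p = 0.412, 0.375 and 0.775) and -0.43 ± 0.13, 0.49 ± 0.25 and -0.21 ± 0.28 in bat (adjusted p = 0.277, 0.482 and 0.823). S100b was higher in the male in all 4 mouse groups and in 4 of 6 bat groups. The shares of all genes that passed were 0.00936% and 0.0454%.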

How the data were processed

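Adipose tissue RNA of 20 libraries was sequenced on an Illumina HiSeq instrument after extraction with a kit for lipid-rich tissue, per the labels' protocols and the design text. The values are FPKM, computed and deposited by the authors for 14871 mouse gene identifiers, of which 14723 were given symbols here. The submitters' processing notes name CASAVA 1.8. Aligner, counter, genome build and the assignment of bat reads: not given in the sources used here. No counts were used, so depth was estimated only in relative terms.

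Tests used log2(FPKM + 1) of genes with 1 FPKM or more in 2 or more libraries of a species (10689 in mouse, 11025 in bat). Group means were fitted over all libraries of the species with limma 3.58.1 (R 4.3.3), which takes the spread from all groups and moderates it across genes. P-values are two-sided and adjusted by Benjamini and Hochberg over all genes of a comparison, with calls under 0.05. Printed log2 changes are less the median over all genes, which was -0.30 and -0.37 in cold mouse iBAT and sWAT and -0.10, 0.07 and -0.14 in cold bat iBAT, sWAT and aWAT, while p-values are those without this shift. The scale understates changes of genes near 1 FPKM. The 2 libraries of a group are a female and a male, so their spread holds any sex difference, and a permutation test of 2 against 2 cannot reach the threshold.

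The 3 genes and all lists were chosen with earlier results of these data known. Beside the 3 genes, the text names up to 4 genes of each list with the largest change among those that passed, those with a stated role, and the 5 genes per species with the highest Pearson r, and some genes that this gives are not reported here. Alternatives were a pseudocount of 0.1, no filter, a mean of at least 5 FPKM, 3 other scalings, limma-trend, the compared groups alone, sex as a block, and leaving out each library in turn. The comparison of species and a block of sex within temperature were added after the data had been seen. The fit was tested on simulated data with independent libraries and the same spread of a gene in all groups. That test does not cover unequal spreads between groups or depots that share animals. Sequences and positions come from GENCODE M21 (GRCm38), and shared stretches of 20 or more bases were searched in its transcripts on both strands.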

Additional observations from a re-analysis of the deposited data

Results flagged for a closer look

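The cold response of Clstn3 differed between 2 bat depots by the interaction test: aWAT minus sWAT was 2.17 on the log2 scale (SE 0.45, limma adjusted p = 0.0430). It was the 1 of 12 differences between depots of a species that passed for the 3 genes, and it was lost without any 1 of 7 of its 8 libraries. Of all genes, 3.8% passed in that interaction. The shares were 0.608% and 0.245% for bat iBAT with sWAT and with aWAT, and 0.0374% for mouse iBAT with sWAT.

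Responses that differed between the species, bat minus mouse, passed in 7 of 9 tests of a comparison added after the values were seen. The shares of all genes that passed were 4.15% in iBAT, 21.5% in sWAT and 11% for bat aWAT against mouse sWAT. In iBAT the difference was -3.25 for Clstn3 and -3.46 for S100b. In sWAT it was -3.76 for Clstn3, -4.09 for S100b and -3.01 for Ntrk3. Bat aWAT against mouse sWAT gave -6.50 for S100b and -3.71 for Ntrk3. The muscle genes were high in the cold male mouse sWAT library and in both cold bat sWAT libraries, and their part was not tested. Groups of 2 are too small for a test of single outlying libraries, and none was made.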

How the results depend on the processing

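The 3 genes gave 72 results in 24 comparisons, of which 33 passed. Other settings gave 655 values, of which 616 stayed on the same side of the threshold with the same sign, 29 lost the call, 7 gained it and 3 changed sign. Leaving out 1 library gave 408 values, with 331, 60, 7 and 10 in the same order. None of the 33 called results changed sign in any setting run. Fits of the compared groups alone have few residual degrees of freedom and lost more calls than any other setting. Where 1 library was left out, its group had 1, which was assumed to vary like the others.

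With the groups alone, calls were lost for Clstn3 (3.85), S100b (3.03) and Ntrk3 (1.50) in cold mouse sWAT (each adjusted p = 0.122), S100b in cold bat iBAT (-2.39), Clstn3 in cold bat aWAT (2.26) and in warm mouse iBAT against sWAT (2.33), S100b in cold bat aWAT against sWAT (-1.55), Clstn3 in the response of bat aWAT against sWAT (2.17), S100b in cold bat aWAT against warm iBAT (-2.80), and Clstn3 (-3.76), S100b (-4.09) and Ntrk3 (-3.01) in the sWAT response between species. Clstn3 in cold mouse sWAT against warm iBAT was gained (1.53, adjusted p = 0.0485). With quantile normalization, calls were lost for Clstn3 in cold mouse iBAT (2.89, adjusted p = 0.0511), S100b in cold bat iBAT (-2.30), S100b in cold bat iBAT against sWAT (-1.12) and S100b in the iBAT response between species (-3.20), and the Ntrk3 interaction in mouse was gained (-2.44, adjusted p = 0.0355), as it was with a mean of at least 5 FPKM (-2.08) and limma-trend (-2.17). With median-ratio scaling, Ntrk3 in cold mouse iBAT (-0.54) and S100b in cold bat iBAT against sWAT (-1.11) were lost. With a pseudocount of 0.1, S100b in cold bat iBAT (-2.58), in cold iBAT against sWAT (-1.24) and in cold aWAT against sWAT (-1.81) and the Clstn3 response of bat aWAT against sWAT (2.42) were lost. Without a filter, so were S100b (-2.46, -1.26 and -1.60, in that order), Ntrk3 in cold bat aWAT against sWAT (-1.67), Clstn3 in warm mouse iBAT against sWAT (2.14) and the Clstn3 response of bat aWAT against sWAT (2.10), which was also lost when scaled without the 10 highest genes (2.16). The cause of these lost and gained calls was not tested.

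Changes of sign, all in results that had not passed, were Clstn3 in cold bat iBAT (0.043 at median ratios, -0.27 to 0.24 without 1 library), S100b in mouse iBAT against sWAT at 10 °C (-0.017), in bat iBAT against sWAT at 30 °C (-0.28 without the warm male iBAT library, and -0.38 to 0.69 over all 4) and in cold bat iBAT against aWAT (-0.23 to 1.04), the Clstn3 interactions of iBAT with sWAT in mouse (-1.55 to 0.37) and bat (-0.34 to 0.17), that of Ntrk3 in bat with a pseudocount of 0.1 (-0.21), S100b in cold mouse sWAT against warm iBAT (-0.024 at median ratios, -1.004 to 1.05 without 1 library), and the sex difference of Ntrk3 in bat (-0.35 to 0.0783, with 0.0779 and 0.0783 without the warm sWAT libraries).

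Without 1 library, ranges of results whose call changed and that are not given above were 3.12 to 3.33 (Clstn3) and -0.87 to -0.51 (Ntrk3) in cold mouse iBAT, 2.02 to 4.04 (S100b) and 1.46 to 1.54 (Ntrk3) in cold mouse sWAT, -2.84 to -1.96 (S100b) in cold bat iBAT, -2.34 to -0.69 (Ntrk3) in cold bat sWAT and -2.46 to -1.90 (Ntrk3) in cold bat aWAT. In warm mouse iBAT against sWAT they were 1.35 to 3.27 (Clstn3) and 2.68 to 3.33 (S100b), and at 10 °C -0.017 to 2.03 (S100b). In bat iBAT against sWAT at 10 °C they were -1.42 to -0.83 (S100b) and -2.11 to -1.61 (Ntrk3), against aWAT at 30 °C -2.03 to -1.48 (Ntrk3), and in aWAT against sWAT at 10 °C -2.18 to -0.91 (S100b) and -1.88 to -1.38 (Ntrk3). Those of the interactions were -2.97 to -0.93 (S100b) and -2.35 to -1.98 (Ntrk3) in mouse, -2.83 to -1.66 (Clstn3, bat iBAT with aWAT), 1.57 to 2.77 (Clstn3) and -3.01 to -1.75 (S100b, bat aWAT with sWAT). Cold bat aWAT against warm iBAT gave -3.45 to -2.15 (S100b), and the species differences -3.51 to -3.004 (Clstn3) and -3.92 to -3.02 (S100b) in iBAT and -2.58 to -0.67 (Clstn3) for bat aWAT against mouse sWAT.

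The labels give each group a female and a male and do not say whether depots share animals. Deviations of the same sex went together (r over 0.1) in both mouse and all 6 bat pairs of groups at 1 temperature (r = 0.37 to 0.41 and 0.26 to 0.55), and in 2 of 4 mouse and 0 of 9 bat pairs across temperatures (-0.02 to 0.47 and -0.19 to 0.05), a hint from the data and not the design. A replicate block of sex changed 1 call of the 3 genes, the Clstn3 interaction of bat iBAT with aWAT (-2.24, adjusted p = 0.0382). A block of sex within temperature, chosen after seeing the data, gave it too (-2.24, adjusted p = 0.0297), and the S100b interaction of bat aWAT with sWAT (-2.38, adjusted p = 0.0383). Genes called in all moved by more: from 1369 to between 480 and 2941 in cold mouse iBAT, from 3545 to between 0 and 4367 in mouse sWAT, from 214 to between 0 and 287 in bat iBAT, from 119 to between 38 and 131 in bat sWAT, and from 1634 to between 255 and 1977 in bat aWAT. Without 1 library they were 1 to 2, 47 to 5028, 5 to 30, 26 to 85 and 422 to 1706 in the same order, so the shares of all genes printed beside the results hold for the full set of libraries. Depth was estimated only in relative terms, so what it limits was not computed.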
